A study of Gallus gallus with 21 samples.

Results

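The transcripts described here belong to the folding machinery of the endoplasmic reticulum, as 10 genes of the 18631 in the deposited table: HSPA5, HSP90B1, CALR, CANX, PDIA3, PDIA4, PDIA6, HYOU1, DNAJC3 and XBP1. They were picked out of the table by gene symbol, from a list drawn up with earlier results of these data known. Of these, 8 encode chaperones or disulfide isomerases, DNAJC3 encodes a cochaperone, and XBP1 encodes a transcription factor that drives genes of this machinery. All 10 passed the filter on low values, which kept the 12614 genes with at least 0.5 CPM in at least 7 libraries. RNA was measured in the retina of White Leghorn chickens of wild type genotype, which were untreated controls kept under a standard light cycle. There were 3 groups of 7 libraries. From a start at postnatal day 3, retinas were taken 1 day later (postnatal day 4), 3 days later (postnatal day 6) or 6 days later (postnatal day 9). The labels do not say which libraries came from separate birds, so the p-values measure the spread between libraries, which may in part be technical.

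Secreted and membrane proteins enter the endoplasmic reticulum as they are made, and chaperones there bind them until they have folded, while disulfide isomerases join and rearrange their disulfide bonds. When unfolded proteins accumulate, the sensors IRE1, PERK and ATF6 start the unfolded protein response, which slows protein synthesis and raises transcription of the chaperones. In the retina, photoreceptors are known for a heavy load of membrane protein, since they renew their outer segments and the opsins in them throughout life.

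Each library held 27.7 to 41.4 megareads in all, of which the genes in the table took 8.65 to 13.8 megareads, estimated from the steps between low values. The members rested on 329 reads in a library at the least, for XBP1, and 5972 at the most, for HSP90B1. HINTW, on the female-specific W chromosome, had 121 to 147 CPM in 13 libraries and no more than 0.549 CPM in the other 8. The 13 comprised 3 libraries from 1 day, 4 from 3 days and 6 from 6 days, so presence of the W chromosome and age are in part confounded. The retinal label fitted the markers, with 5 photoreceptor markers summing to 466 to 927 CPM. The summed level of 5 pigment epithelium markers was 1.93 to 7.42 CPM, that of 5 fibroblast markers 0.413 to 1.26 CPM, and JCHAIN, of antibody-secreting cells, stood at 0 to 0.158 CPM. Higher sums were those of 3 endothelium markers, at 38.9 to 68.8 CPM with KDR the most abundant, and of 3 leukocyte markers, at 3.71 to 8.85 CPM.

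On the deposited CPM scale, transcripts of the reticulum chaperones were higher at 6 days than at 1 and 3 days. XBP1 passed against 3 days and not against 1 day. From 3 to 6 days all 10 members rose (limma, adjusted p under 0.05), against 17.4% of all genes tested. Their log2 fold changes lay between 0.17 for CANX and 0.68 for HSPA5, with a median of 0.43 beside 0.07 for the median of all genes. From 1 to 6 days 9 rose, all but XBP1, against 30.0% of all genes, with a median of 0.35 beside 0.14. From 1 to 3 days none passed in limma, against 7.71% of all genes higher and 2.43% lower, or 10.1% in all. These comparisons share groups of libraries, so they are not independent of each other. The counts depended on the scaling and on the libraries used. With median-of-ratios scaling, which brings the median gene near 0, 6 members rose from 3 to 6 days, against 8.63% of all genes. From 1 to 6 days 4 rose with it, against 8.25%. Among libraries with W-linked transcripts alone, 8 rose from 3 to 6 days, against 6.64%, and 2 from 1 to 6 days, against 6.15%. The summed level of the 10 members was 389 to 494 CPM at 1 day, with a median of 467 CPM. It was 335 to 511 CPM at 3 days, with a median of 422 CPM, and 533 to 663 CPM at 6 days, with a median of 581 CPM. No library at 6 days overlapped the earlier ages in this sum of deposited CPM values. The sum was not recomputed after another scaling. The photoreceptor marker sum was 466 to 694, 498 to 828 and 650 to 927 CPM at 1, 3 and 6 days, and its part in the chaperone levels was not tested. In such bulk samples, more cells of a type and more RNA per cell cannot be told apart.

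**Figure D1:**
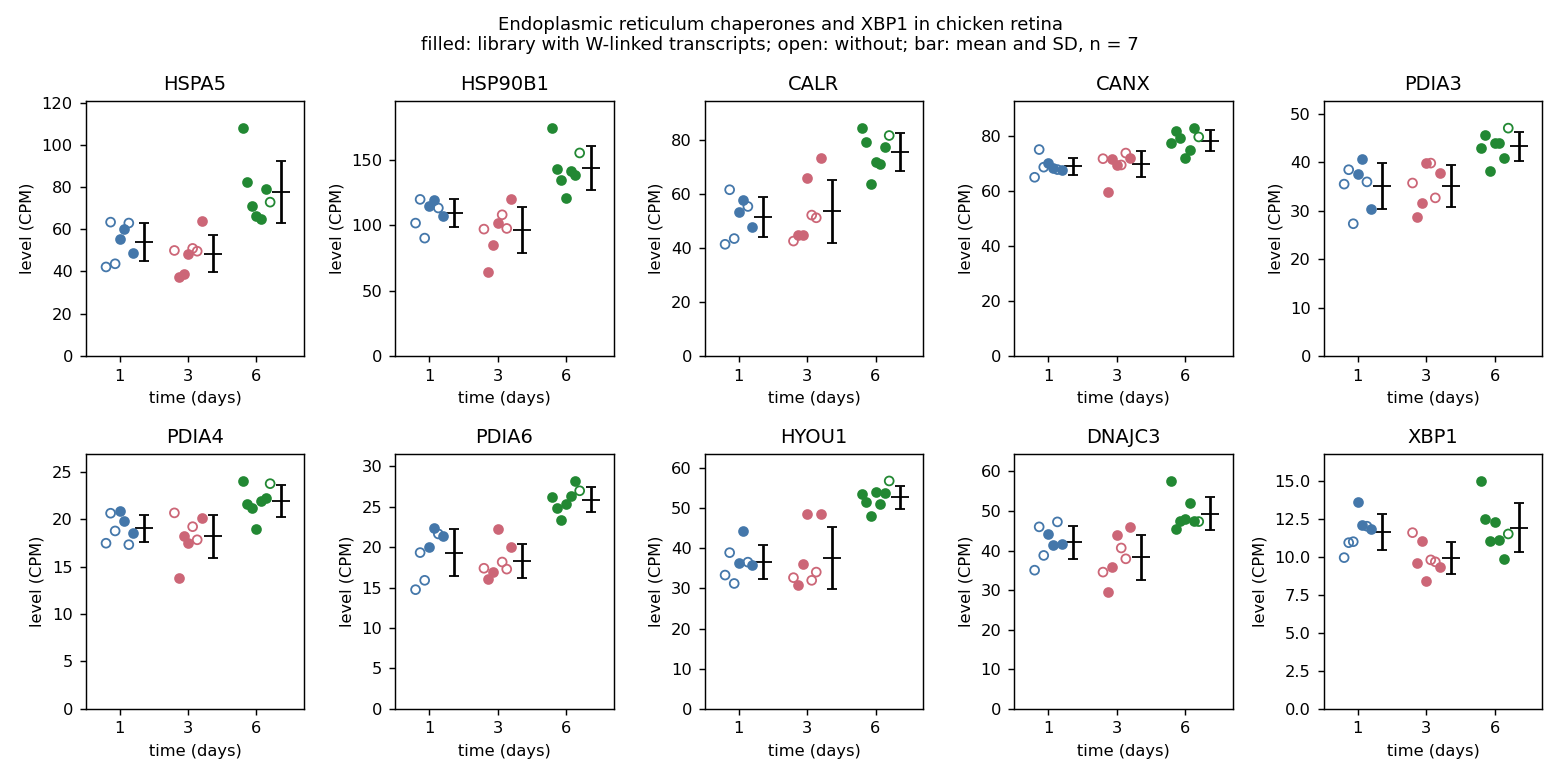
Level in CPM (y axis, from 0) of each of the 10 genes in the 7 libraries at 1, 3 and 6 days (x axis); filled points are libraries with W-linked transcripts, open points those without, and bars give the mean and SD. For HSPA5, HSP90B1 and PDIA6, all 7 libraries at 6 days lie above all 14 earlier ones.

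HSPA5 encodes BiP, the HSP70 chaperone of the reticulum lumen, which also holds the stress sensors inactive (chromosome 17, 9890854 to 9894907, minus strand, GRCg6a). Its levels at 1 day were 42.1 CPM at the lowest, 55.6 at the median and 63.4 at the highest. At 3 days they were 37.5, 49.6 and 63.7 CPM, and at 6 days 64.96, 72.8 and 107.9 CPM. The 1-day and 3-day libraries overlapped almost wholly, and every 6-day library lay above both. Library C57L stood apart at 6 days, above the next highest, C58R, at 82.4 CPM. The group means were 53.8 ± 9.00, 48.4 ± 8.68 and 77.8 ± 14.7 CPM (SD, n = 7 each). The level rose from 3 to 6 days by 0.68 on the log2 scale (1.60-fold, SE 0.12, adjusted p = 0.000381) and from 1 to 6 days by 0.53 (SE 0.12, adjusted p = 0.00224). Without C57L these changes were 0.60 and 0.44, and both still passed.

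HSP90B1, or GRP94, is the HSP90 chaperone of the lumen, with integrins and Toll-like receptors among its known clients (chromosome 1, 54709107 to 54718954, minus strand). It ranged from 90.3 over a median of 113 to 120.004 CPM at 1 day, from 64.5 over 97.7 to 119.99 CPM at 3 days and from 121 over 142 to 174.6 CPM at 6 days. All 6-day libraries were above all earlier ones, by a gap of about 1 CPM between C62L and the highest earlier library, C17L. C33R was the lowest at 3 days, as it was for HSPA5, and C57L again the highest at 6 days. HSP90B1 rose by 0.59 from 3 to 6 days (1.51-fold, SE 0.10, adjusted p = 0.000265) and by 0.39 from 1 to 6 days (SE 0.10, adjusted p = 0.00504). Its difference from 1 to 3 days was -0.20, with a 95% interval from -0.41 to 0.01 (adjusted p = 0.2001).

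HYOU1, or GRP170, is a large relative of HSP70 that acts as a nucleotide exchange factor for BiP (chromosome 24, 5675942 to 5690721, minus strand). Its levels ran from 31.2 over a median of 36.3 to 44.4 CPM at 1 day, from 30.97 over 34.1 to 48.6 CPM at 3 days and from 48.0 over 53.6 to 56.8 CPM at 6 days. At 3 days C41R and C44R stood near 48.6 CPM and the other 5 libraries at or below 36.2 CPM, so that these libraries alone reached the 6-day range. The 1-day and 6-day groups did not overlap. HYOU1 rose from 1 to 6 days by 0.52 (SE 0.09, adjusted p = 0.000359) and from 3 to 6 days by 0.50 (SE 0.09, adjusted p = 0.000545).

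DNAJC3, or P58IPK, is a J-domain cochaperone of BiP that is also known as an inhibitor of PERK (chromosome 1, 147369992 to 147401865, minus strand). It was 35.0, 41.6 and 47.2 CPM at 1 day for the lowest, median and highest library, 29.5, 37.9 and 45.9 CPM at 3 days, and 45.5, 47.5 and 57.6 CPM at 6 days. The 6-day libraries lay close together apart from C57L and C63R, and the lowest of them, C58R, fell within the upper range of both earlier ages. DNAJC3 rose by 0.37 from 3 to 6 days (SE 0.08, adjusted p = 0.00249) and by 0.23 from 1 to 6 days (SE 0.08, adjusted p = 0.0346). The call from 1 to 6 days was lost when any of 4 single libraries was left out, with adjusted p up to 0.0879.

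CALR encodes calreticulin, a soluble lectin of the lumen that binds glycoproteins carrying a single terminal glucose and stores calcium (chromosome 30, 422192 to 425006, minus strand). Its levels at 1 day were 41.3, 53.4 and 61.5 CPM for the lowest, median and highest library. They were 42.5, 51.1 and 73.3 CPM at 3 days and 63.7, 77.3 and 84.3 CPM at 6 days. All 6-day libraries were above all 1-day libraries, while at 3 days C44R and C41R reached into the 6-day range. CALR rose by 0.56 from 1 to 6 days (1.47-fold, SE 0.11, adjusted p = 0.000735) and by 0.51 from 3 to 6 days (SE 0.11, adjusted p = 0.00168).

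CANX encodes calnexin, the membrane-bound partner of calreticulin in the same lectin cycle (chromosome 13, 14242224 to 14260010, minus strand). It was the steadiest member, with 64.97, 68.4 and 75.0 CPM at 1 day, 59.7, 71.7 and 73.8 CPM at 3 days and 71.9, 79.4 and 82.8 CPM at 6 days for the lowest, median and highest library. Its SD was 4.51%, 6.69% and 4.93% of the mean at 1, 3 and 6 days. The groups overlapped at the edges, and C33R lay alone at the bottom of the 3-day group. CANX rose by 0.17 from 3 to 6 days (1.123-fold, SE 0.05, adjusted p = 0.0116) and by 0.18 from 1 to 6 days (SE 0.05, adjusted p = 0.00509). With the median gene at 0.14 from 1 to 6 days, the rise of CANX was close to the general shift. Median-of-ratios scaling, which places the median gene at 0, left it at 0.03 (adjusted p = 0.772).

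The 3 disulfide isomerases share thioredoxin-like domains. PDIA3, or ERp57, works on glycoproteins bound to calnexin and calreticulin (chromosome 10, 20574322 to 20583235, minus strand). Its lowest, median and highest levels were 27.3, 36.0 and 40.7 CPM at 1 day, 28.7, 35.8 and 39.9 CPM at 3 days, and 38.2, 43.95 and 47.1 CPM at 6 days. Most 6-day libraries were above the earlier ones, and C59L alone lay below the highest earlier libraries. PDIA3 rose by 0.30 from 3 to 6 days (SE 0.08, adjusted p = 0.0108) and by 0.31 from 1 to 6 days (SE 0.08, adjusted p = 0.00720).

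PDIA4, or ERp72, has 3 active thioredoxin-like domains in mammals and associates with BiP (chromosome 2, 54400029 to 54411550, minus strand). It stood at 17.3, 18.8 and 20.9 CPM at 1 day, 13.8, 18.3 and 20.7 CPM at 3 days and 18.97, 21.9 and 24.1 CPM at 6 days for the lowest, median and highest library. All 3 groups overlapped, and C62L at 6 days was below the mean of the 1-day group. PDIA4 rose by 0.27 from 3 to 6 days (SE 0.07, adjusted p = 0.0108) and by 0.20 from 1 to 6 days (SE 0.07, adjusted p = 0.0416). The latter was lost when any of 10 of the 21 libraries was left out, with adjusted p up to 0.0861.

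PDIA6, or P5, also binds BiP and is known from mammalian cells to limit signalling by IRE1 (chromosome 3, 96926581 to 96943797, minus strand). Its levels were 14.7, 19.97 and 22.4 CPM at 1 day, 16.1, 17.4 and 22.2 CPM at 3 days and 23.3, 26.2 and 28.2 CPM at 6 days. All 7 libraries at 6 days lay above all earlier ones. PDIA6 rose by 0.49 from 3 to 6 days (1.41-fold, SE 0.08, adjusted p = 0.000298) and by 0.42 from 1 to 6 days (SE 0.08, adjusted p = 0.000884). Over 1263 bases it overlaps ATP6V1C2 on the other strand, a gene that stood at no more than 0.499 CPM in any library.

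XBP1 encodes the transcription factor whose messenger IRE1 splices to give the active protein (chromosome 15, 8001344 to 8004470, minus strand). The table gives 1 level for the gene and does not separate the spliced form. XBP1 had 9.97, 11.9 and 13.7 CPM at 1 day, 8.43, 9.69 and 11.6 CPM at 3 days and 9.90, 11.5 and 15.0 CPM at 6 days. All 7 libraries at 3 days lay below the 1-day mean, but the groups overlapped, and C57L was again the highest at 6 days. XBP1 rose from 3 to 6 days by 0.25 (SE 0.08, adjusted p = 0.0351), with 6 of 7 libraries above the 3-day mean. That call was lost when any of 8 single libraries was left out, with adjusted p = 0.0876 and a change of 0.19 without C57L. From 1 to 6 days its difference was 0.03, with a 95% interval from -0.15 to 0.20 (adjusted p = 0.829). From 1 to 3 days it was -0.22 (SE 0.08, adjusted p = 0.0896), and with median-of-ratios scaling -0.29 (adjusted p = 0.0287).

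**Figure D2:**
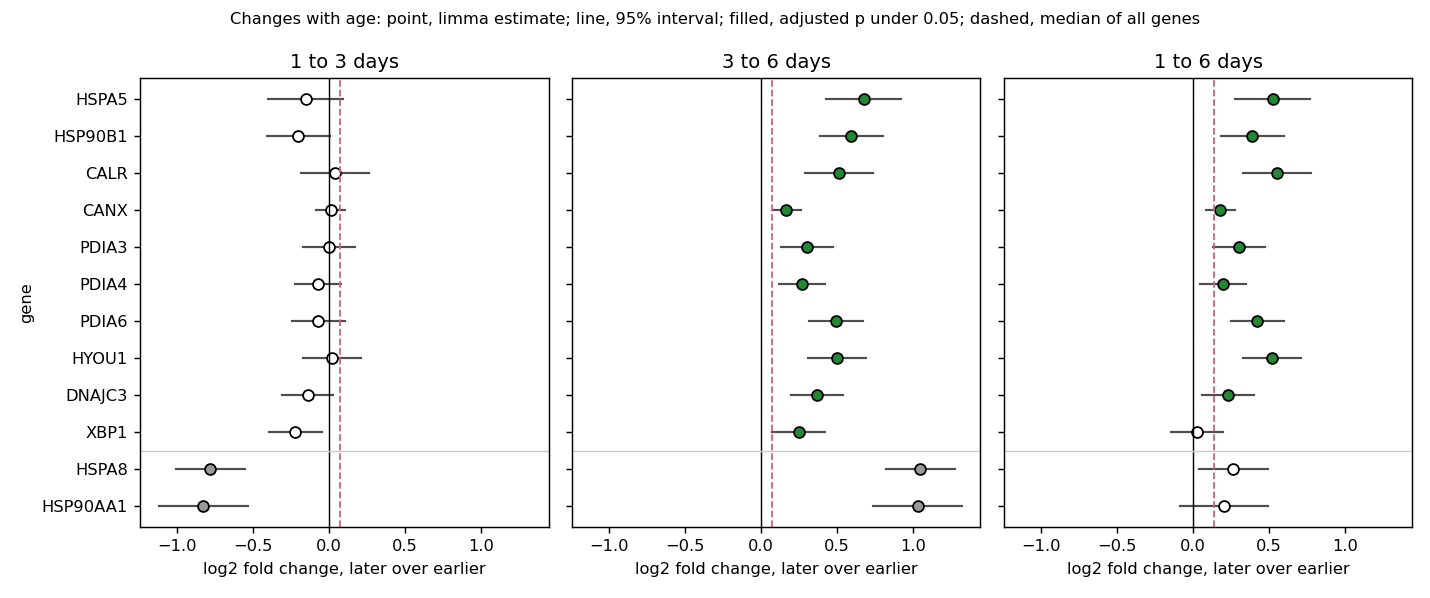
Log2 fold change of each gene (x axis, later over earlier) with its 95% interval in the 3 comparisons; filled points passed the threshold, grey ones are the cytosolic relatives, and the dashed line is the median of all genes. All 10 members lie to the right of 0 from 3 to 6 days, between 0.17 and 0.68. From 1 to 3 days they lie between -0.22 and 0.04, with a median of -0.07 beside 0.07 for all genes.

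From 1 to 3 days the members' log2 fold changes lay between -0.22 for XBP1 and 0.04 for CALR, with a median of -0.07 beside 0.07 for all genes. With limma, 1 of the 10, XBP1, had an unadjusted p under 0.05, as did 3384 of the 12614 genes tested. HSPA5 stood at -0.15, with a 95% interval from -0.40 to 0.10 (adjusted p = 0.438). For CANX the interval ran from -0.08 to 0.11, and for PDIA3 from -0.17 to 0.17, so changes up to these bounds lay within the error. The change after 3 days minus the change before it was positive past the threshold in 5 members, against 6.33% of all genes. It was 0.83 for HSPA5 (SE 0.21, adjusted p = 0.0102), 0.80 for HSP90B1 (SE 0.17, adjusted p = 0.00394) and 0.56 for PDIA6 (SE 0.15, adjusted p = 0.0134). DNAJC3 stood at 0.51 (adjusted p = 0.0209) and XBP1 at 0.47 (adjusted p = 0.0358), while HYOU1 at 0.48 missed the threshold (adjusted p = 0.0507). Without C33R the count was 3 of 10, while 847 of all genes passed from 1 to 3 days, against 1279 with it. The share of all genes with this turn was not computed for that fit. The intervals before and after 3 days differ in length, and the changes were not taken per day. In the test for a difference at any time all 10 members passed, against 38.6% of all genes.

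The groups at 3 and 6 days did not overlap for 3 members, HSPA5, HSP90B1 and PDIA6, against 3.65% of all genes higher without overlap. The groups at 1 and 6 days did not overlap for these 3 and for CALR and HYOU1, against 9.31% of all genes. Overlap was judged on the deposited CPM values alone, and not after another scaling. The genes in the table held 29.9% to 31.9% of a library's reads at 1 day and 30.8% to 33.3% at 3 days. At 6 days they held 32.9% to 34.2%. How many members passed depended on the scaling of the libraries. Median-of-ratios scaling moved the median of all genes from 1 to 6 days from 0.14 to 0.00. With it, 6 members rose from 3 to 6 days, namely CALR, DNAJC3, HSP90B1, HSPA5, HYOU1 and PDIA6, against 8.63% of all genes. From 1 to 6 days 4 rose, namely CALR, HSPA5, HYOU1 and PDIA6, against 8.25% of all genes. Their changes under that scaling were 0.40, 0.37, 0.37 and 0.27. The rises of HSP90B1, PDIA3, DNAJC3, PDIA4 and CANX from 1 to 6 days did not pass under it, at 0.24, 0.15, 0.077, 0.047 and 0.03 (adjusted p between 0.121 and 0.772). From 3 to 6 days PDIA3, PDIA4, XBP1 and CANX did not pass, at 0.22, 0.19, 0.17 and 0.089 (adjusted p between 0.0758 and 0.278). With the same scaling XBP1 alone fell from 1 to 3 days, against 5.51% of all genes. With quantile normalization 6 members rose from 3 to 6 days (8.74% of all genes) and 5 from 1 to 6 days (8.18%), and 1 fell from 1 to 3 days (4.82%).

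The members were also recomputed with regard to the W chromosome. With the W-linked level as a covariate 9 members rose from 3 to 6 days, against 15.0% of all genes, and 8 from 1 to 6 days, against 21.4%. The call lost was that of XBP1 in the former (adjusted p = 0.0538) and that of DNAJC3 in the latter (adjusted p = 0.0789). When the 13 libraries that hold W-linked transcripts were analysed by themselves, 8 rose from 3 to 6 days, against 6.64% of all genes, with CANX (adjusted p = 0.0507) and XBP1 (adjusted p = 0.0779) not past the threshold. From 1 to 6 days, with 3 libraries against 6, 2 members rose there, against 6.15% of all genes: CALR by 0.49 (adjusted p = 0.0385) and HYOU1 by 0.42 (adjusted p = 0.0404). There 6 of 10 members differed at any time, against 13.1% of all genes. For 3 members the change after 3 days minus the change before it was positive past the threshold, against 2.43% of all genes. The libraries without W-linked transcripts, of which 1 was from 6 days, were not tested by themselves.

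Some libraries were at the low or the high end of their age for several members, and others were mixed. At 3 days C33R was the lowest library for 8 of the 10 members, all but CALR and XBP1, and C44R the highest for 4. C41R was the highest for 3 members and the lowest for XBP1, and C31L the highest for 2 and the lowest for CALR. At 1 day C10R was the lowest for 6 members and C18R for 3, and C17L was the highest for 4. At 6 days C57L was the highest for 6 members and C59L the lowest for 4, while C64L was the highest for 2 and the lowest for 1. C33R was also the lowest at 3 days, and C57L the highest at 6 days, for the cytosolic HSPA8 and HSP90AA1. The share of all genes with such extremes was not computed, so whether these counts are particular to the members was not tested. After removal of the mean of each age, HSPA5 went with HSP90B1 over the 21 libraries at Pearson's r of 0.83 (Spearman's rho 0.86, permutation test within age, adjusted p = 9e-05 over 9 pairs). It went with CALR at r = 0.76 (rho 0.73, permutation adjusted p = 0.00067) and with DNAJC3 at r = 0.75 (rho 0.67, permutation adjusted p = 0.00072). For the 5 members PDIA4, PDIA6, PDIA3, CANX and HYOU1, r lay between 0.51 and 0.59 (rho 0.46 to 0.60), with permutation adjusted p between 0.0168 and 0.0283. XBP1 was the exception, at r = 0.32 and rho = 0.32 (permutation p = 0.18). Without C33R and C57L, the libraries farthest from the median of HSPA5, the 8 that passed stood between 0.475 and 0.823 and XBP1 at 0.095. With median-of-ratios scaling 6 of the 9 pairs passed, with CANX and HYOU1 at adjusted p = 0.0514. When the mean was removed within libraries with and without W-linked transcripts, 7 passed, with CANX at adjusted p = 0.0948. All genes of a library share its depth and scaling. The share of all genes that go with HSPA5 within age was not computed, so whether the counts of pairs set the members apart was not tested.

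**Figure D3:**
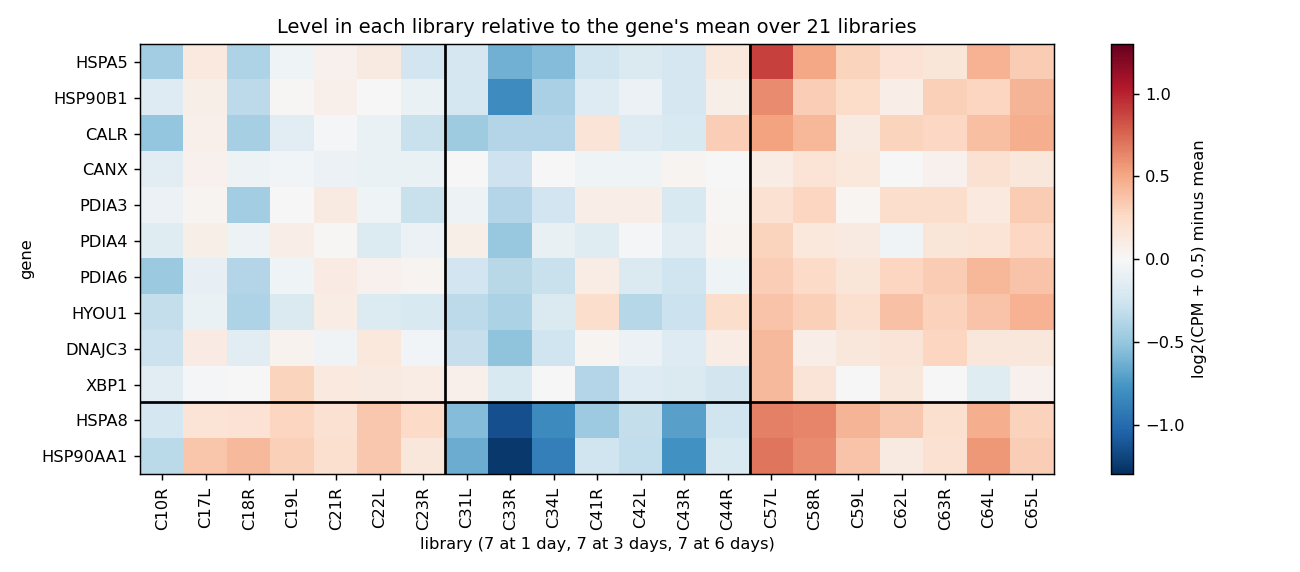
Log2(CPM + 0.5) of each gene minus its mean over the 21 libraries (colour; red above, blue below), with libraries in columns by age and the 10 members above the 2 cytosolic relatives. The 6-day columns are red in nearly every row, C33R has the lowest value of its age in 8 of the 10 member rows, and HSPA8 and HSP90AA1 drop by 0.78 and 0.83 from 1 to 3 days.

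HSP70 and HSP90 chaperones also work in the cytosol, and 2 of them were set beside the members. HSPA8, the constitutive HSP70 of the cytosol, had means of 497 ± 58.5, 292 ± 59.6 and 597 ± 68.6 CPM at 1, 3 and 6 days (SD, n = 7 each). It fell by 0.78 from 1 to 3 days (adjusted p = 7.75e-05) and rose by 1.05 from 3 to 6 days (adjusted p = 3.51e-06). HSP90AA1, a cytosolic HSP90, fell by 0.83 and rose by 1.03 (adjusted p = 0.000672 and 3.36e-05). The reads of HSPA8 may be shared with LOC112530277 and LOC112530278, which overlap it on the same strand.

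The log2 ratio of a reticulum chaperone to its cytosolic relative within a library depends on the scaling of that library only through the pseudocount of 0.5. HSPA5 over HSPA8 ran from -3.50 over a median of -3.14 to -2.96 at 1 day, from -2.79 over -2.56 to -2.39 at 3 days and from -3.07 over -2.96 to -2.67 at 6 days. All 3-day libraries were above all 1-day libraries. The mean ratio was higher at 3 days than at 1 day by 0.63 (SE 0.09, exact two-sided permutation test, adjusted p = 0.00262 over 6 tests, 7 of 7 libraries). From 3 to 6 days it changed by -0.37 (SE 0.08, exact permutation test, adjusted p = 0.00262, 7 of 7 libraries lower), and from 1 to 6 days by 0.26 (SE 0.09, exact permutation test, adjusted p = 0.0126). HSP90B1 over HSP90AA1 ran from -2.81 over a median of -2.35 to -1.87 at 1 day, from -1.97 over -1.64 to -1.50 at 3 days and from -2.35 over -2.14 to -1.94 at 6 days. C10R at 1 day was the exception that reached the 3-day range. This ratio changed by 0.62 from 1 to 3 days (SE 0.12, exact permutation test, adjusted p = 0.00262, 7 of 7 libraries) and by -0.44 from 3 to 6 days (SE 0.09, exact permutation test, adjusted p = 0.00262, 7 of 7 lower). Its difference from 1 to 6 days was 0.19 (SE 0.12, exact permutation test, adjusted p = 0.155, 5 of 7 libraries higher). From 1 to 3 days the log2 fold changes of HSPA8 and HSP90AA1 were -0.78 and -0.83. Those of HSPA5 and HSP90B1 were -0.15 and -0.20, not past the threshold in limma. The rise of both ratios thus came mostly from the cytosolic relatives and is not separate evidence on the members.

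**Figure D4:**
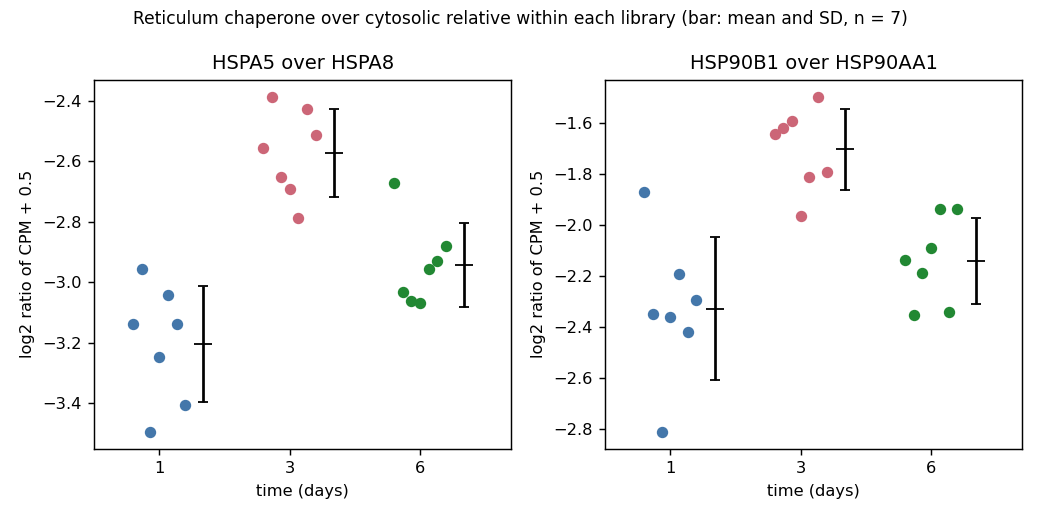
Log2 ratio of CPM + 0.5 (y axis) of HSPA5 over HSPA8 and of HSP90B1 over HSP90AA1 in each library at 1, 3 and 6 days (x axis), with mean and SD. Both ratios are highest at 3 days, with means of -2.57 and -1.70.

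Other genes of the pathway were followed in 6 lists. Of 12 sensors and transcription factors of the unfolded protein response that were tested, 2 rose and 2 fell from 1 to 3 days, against 7.71% of all genes higher and 2.43% lower. From 3 to 6 days 4 rose and 1 fell, against 17.4% and 4.93%. From 1 to 6 days 4 rose and none fell, near the background of 30.0% of all genes higher, with a median log2 fold change of 0.18 beside 0.14 for all genes. With median-of-ratios scaling 2 rose and 1 fell in that comparison, with a median of 0.03. Of all 12614 genes, 8.25% were higher there, and 2165 passed in either direction. EIF2AK3, which encodes PERK, went from 23.8 ± 1.57 CPM at 1 day to 30.2 ± 2.22 CPM at 3 days and 29.6 ± 1.23 CPM at 6 days, a rise of 0.34 before 3 days (SE 0.05, adjusted p = 0.00023). ATF6, the sensor that becomes a transcription factor by cleavage in the Golgi, rose by 0.44 from 1 to 6 days (7.01 ± 1.09 to 9.64 ± 0.572 CPM, adjusted p = 0.000732). NFYA and NFYB, subunits of the NF-Y factor that binds beside ATF6 at chaperone promoters, fell from 1 to 3 days by 0.31 and 0.56. From 3 to 6 days they rose by 0.33 and 0.64 (adjusted p = 0.00195 and 0.00154).

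Of 7 genes tested that are targets of the ATF4 arm or are tied to it, 2 rose and none fell from 1 to 6 days, near the 30.0% of all genes that rose. ATF3, a stress-induced transcription factor, fell by 0.68 from 1 to 3 days (adjusted p = 0.0011) and rose by 0.55 from 3 to 6 days (adjusted p = 0.00256). PPP1R15B, the constitutive partner of the phosphatase that removes phosphate from eIF2 alpha, rose by 0.22 from 1 to 6 days (adjusted p = 0.0097). VLDLR, a lipoprotein receptor gene on chromosome Z, rose by 0.19 from 3 to 6 days (adjusted p = 0.027). Neither of these rises passed in limma with median-of-ratios scaling (0.06, adjusted p = 0.446, and 0.11, adjusted p = 0.262). With it the list had 0 rises from 1 to 6 days, against 8.25% of all genes higher.

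Of 35 other folding factors of the reticulum, 9 rose and 1 fell from 3 to 6 days, against 17.4% of all genes higher and 4.93% lower, and 7 rose from 1 to 6 days, against 30.0% of all genes. The median from 3 to 6 days was 0.10 beside 0.07 for all genes and 0.43 for the 10 members. SERPINH1, the collagen chaperone HSP47, went from 2.83 ± 0.894 over 1.61 ± 0.379 to 3.93 ± 0.94 CPM, a fall of 0.63 and then a rise of 1.06 (adjusted p = 0.0167 and 0.000143). FKBP9, a proline isomerase, rose by 0.45 from 3 to 6 days (adjusted p = 0.00232), and ERP44, which retains thiol-bearing proteins in the early secretory pathway, by 0.38 (adjusted p = 0.000901). P4HB, the founding disulfide isomerase, rose from 35.0 ± 2.81 CPM at 1 day to 43.96 ± 3.08 CPM at 6 days, by 0.33 (adjusted p = 0.000513), with 0.18 and 0.15 in the intervals, neither past the threshold. With median-of-ratios scaling this list had 3 rises and 3 falls from 1 to 6 days, beside 8.25% of all genes higher. Of the 12614 genes, 2165 passed there in either direction, 1041 of them higher.

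Of 24 genes of degradation from the reticulum, 4 rose from 3 to 6 days and 9 from 1 to 6 days, and none fell in either. Both counts were near the background of 17.4% and 30.0% of all genes. EDEM3, which trims mannose from misfolded glycoproteins, rose by 0.41 and 0.51 in these comparisons (adjusted p = 0.000254 and 6.76e-05). The mannosidase MAN1B1 rose by 0.25 from 1 to 6 days, and the ubiquitin ligase MARCH6 by 0.17 from 3 to 6 days. Of 33 genes of the translocon and of N-glycosylation, 12 rose from 3 to 6 days and 17 from 1 to 6 days, against the same 17.4% and 30.0%, with none falling. The median of that list from 1 to 6 days was 0.20, beside 0.35 for the members. SRPRA, the receptor of the signal recognition particle, rose by 0.55, the particle proteins SRP68 and SRP72 by 0.54 and 0.32, and RPN2, a subunit of the oligosaccharyl transferase, by 0.37, all from 1 to 6 days. Under median-of-ratios scaling, degradation genes had 2 rises from 1 to 6 days and translocon genes 5, against 8.25% of all genes. MAN1B1 from 1 to 6 days and MARCH6 from 3 to 6 days did not pass there (0.10 and 0.10, adjusted p = 0.239 each). SRP68 and SRP72 overlap EVPL and LEPROTL1 on the same strand, and EIF2AK3, NFYB, ATF3, SERPINH1, ERP44 and MAN1B1 overlap a gene on the other strand, so their levels are less certain.

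Of 22 cytosolic and mitochondrial chaperones, 11 fell and none rose from 1 to 3 days, against 2.43% of all genes lower, and 14 rose from 3 to 6 days, against 17.4% of all genes higher. The median was -0.25 and then 0.49, beside -0.07 and 0.43 for the reticulum members. AHSA1, an activator of the HSP90 ATPase, fell by 0.40 and rose by 0.73, and HSPA2, another HSP70, fell by 0.65 and rose by 1.07. With median-of-ratios scaling 12 fell from 1 to 3 days, against 5.51% of all genes lower. With it 14 rose from 3 to 6 days, against 8.63% higher. From 1 to 6 days 9 rose in the main setting, against 30.0% of all genes. Under that scaling 2 rose there, against 8.25% of all genes higher, and 1 fell. Of all genes, 2165 passed there in either direction, 1041 of them higher.

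**Figure D5:**
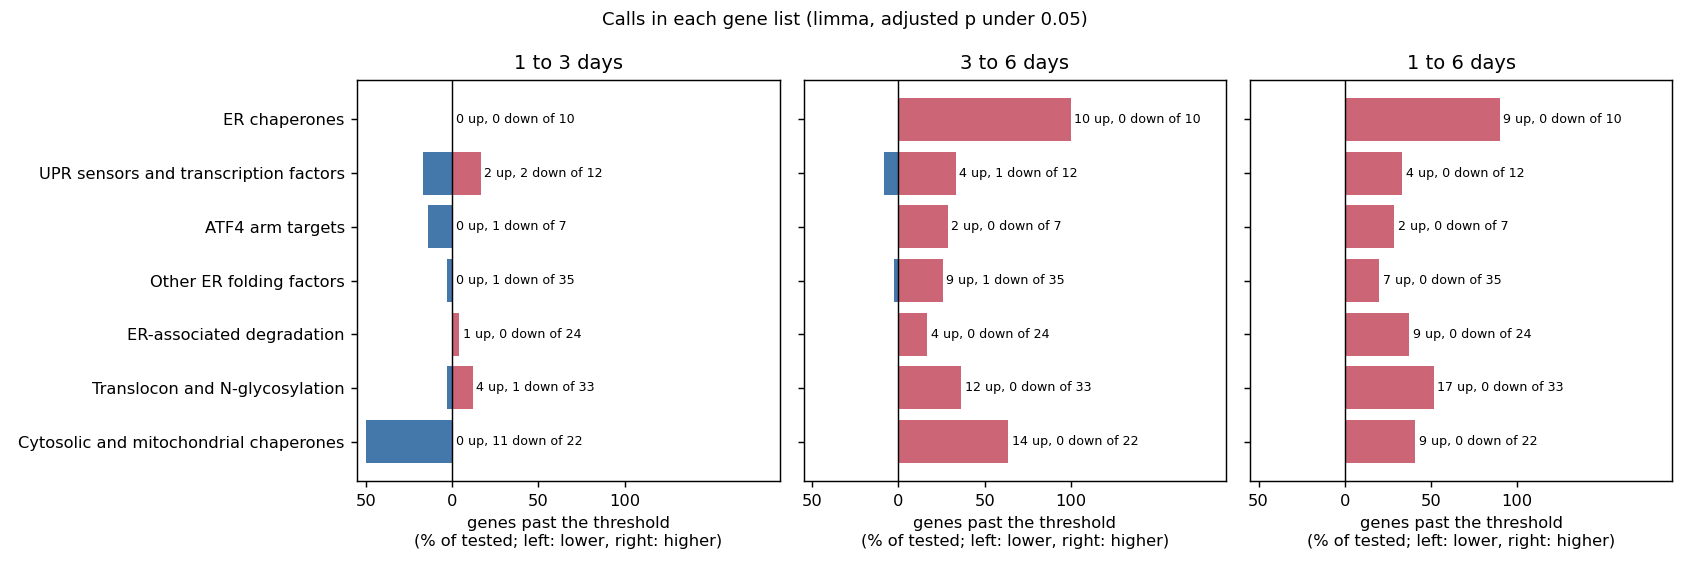
Share of the tested genes of each list past the threshold (x axis in percent; left of 0 lower, right of 0 higher at the later time) in the 3 comparisons, with the counts printed beside the bars. In this main setting the 10 members show 0 calls from 1 to 3 days, against 10.1% of all genes in either direction. Of 22 cytosolic and mitochondrial chaperones, 11 are lower, against 2.43% of all genes lower.

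Among 7156 genes with a symbol and a mean of at least 5 CPM, the 6 whose levels over the 21 libraries were most like those of HSPA5 were NFATC3, CCT5, BBS7, ENOX2, PHACTR3 and TOP1. Their Pearson's r lay between 0.871 and 0.893, which includes the differences between ages. Among the other members r ran from 0.512 for XBP1 to 0.930 for HSP90B1. CCT5 encodes a subunit of the cytosolic chaperonin TRiC, and its level went from 27.0 ± 4.79 over 25.8 ± 4.91 to 40.1 ± 3.60 CPM. NFATC3, a transcription factor driven by calcineurin, went from 42.8 ± 2.82 over 39.9 ± 2.83 to 49.1 ± 2.003 CPM. The 6 most like the mean z-score of the members were MDN1, CCT5, NFATC3, ENOX2, KIF5B and MADD, with r between 0.900 and 0.915. Of the 9 genes in these sets, CCT5 alone still passed from 1 to 6 days with median-of-ratios scaling (0.42, adjusted p = 0.00831). From 3 to 6 days all but KIF5B passed with that scaling (KIF5B 0.087, limma adjusted p = 0.134). TOP1 overlaps PLCG1 on the same strand, so its reads may be shared. All 10 members lie on the minus strand of GRCg6a, on 9 chromosomes, beside 49.7% of all genes in the table.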

How the data were processed

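The authors deposited 1 table of CPM values for 18631 genes and 21 retina libraries, made from total RNA with ribosomal RNA depleted by a stranded kit, per the labels' protocols. STAR, Partek and the build GRCg6a are named in the submitters' processing notes. Their versions, the annotation and the strand setting of the counting are not given in the sources used here. An offset of 0.0001 CPM, the lowest value of every column, was subtracted. If the smallest step of a library is taken as 1 read, 94.1% to 95.1% of its low values were whole (tolerance 0.1 of a step). The members lay above the range of these low values. As not all low values were whole, reads were not recovered and no count test was run. Groups came from the titles.

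The limma package (3.58.1, under R 4.3.3) was run on log2(CPM + 0.5). Group means were fitted over all 21 libraries with the trend option, tests were two-sided, and p-values were adjusted by Benjamini-Hochberg over 12614 genes, with a threshold of 0.05. Fold changes on this scale understate those of low genes. Ratios of 2 genes were compared by exact permutation over all 3432 divisions of 14 libraries, with a smallest possible p of 0.000583. Correlations used 100000 permutations within age. The workflow was tested on simulated libraries with changes from 1 to 6 days in 50 genes of each size. It recovered 36% of 1.25-fold, 92% of 1.5-fold and 100% of 2-fold rises, and 92% of 0.667-fold falls. The simulated spread was a set value, so these shares may differ from those of the real libraries. The members and gene lists were chosen with earlier results of these data known. Besides the members, the genes named are up to 4 per list with the smallest adjusted p for a difference at any time, HSPA8 and HSP90AA1, and the 6 most like HSPA5 and the members' mean. The 1 gene in 2 lists was counted in both. A gene that this rule names is not reported here. Chromosome names came from a RefSeq table of another build, and the coordinates from the deposited table. No transcript lengths were used, so members were not ranked by level, and ratios of 2 genes were compared only between ages. Alternatives were other pseudocounts (0.05 and 2.5), no filter or a floor of 2.5 CPM, median-of-ratios and quantile scaling, the title letter or the mean of 35 W-chromosome genes as a covariate, libraries with W-linked transcripts alone (HINTW of at least 10 CPM), and leaving out each library.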

Additional observations from a re-analysis of the deposited data

Results flagged for a closer look

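Among 36 groups of 7 libraries, 1 library lay far from the other 6 in 2 cases. Chance flags about 1 in 20 groups. For HSPA5 at 6 days, C57L stood at 107.9 CPM, above the next at 82.4 CPM, and its gap took a share of 0.594 of the range. For CANX at 3 days, C33R stood at 59.66 CPM, below the next at 69.4 CPM, with a share of 0.693. C57L was the highest 6-day library for 6 of the 10 members, and C33R the lowest 3-day library for 8. The share of all genes with these extremes was not computed.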

How the results depend on the processing

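No paired analysis was possible because the title numbers differ between the groups. In the 3 comparisons (1 to 3, 3 to 6 and 1 to 6 days), 1279, 2813 and 4103 of all genes passed. Median-of-ratios scaling gave 1 member that fell from 1 to 3 days, 6 that rose from 3 to 6 days, 4 that rose from 1 to 6 days, and 2165 of all genes in the last comparison. Quantile normalization gave 1, 6, 5 and 2025. Median-of-ratios scaling together with the W-linked covariate, a combination added after the data were seen, gave 1, 6, 3 and 1359. The last count covers both directions, and the shares of all genes higher or lower were not computed for this combination. The libraries with W-linked transcripts, 13 in number, gave 270, 1202 and 862 of all genes. There 2 members rose from 1 to 6 days and 6 differed at any time. For 3 members there, the change after 3 days minus the change before it was positive past the threshold. The ratio of HSPA5 to HSPA8 from 1 to 6 days was 0.28 there (exact permutation test, adjusted p = 0.0571). These subsets hold fewer libraries. With pseudocounts of 0.05 and 2.5, without the filter, with a floor of 2.5 CPM and with the title letter, 9 to 10 members rose from 3 to 6 days and 7 to 9 from 1 to 6 days. The shares of all genes higher were not computed for these settings.

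Values near 0 that were not past the threshold changed sign. From 1 to 3 days, CALR, CANX, PDIA3 and HYOU1 stood at -0.034, -0.062, -0.071 and -0.055 with median-of-ratios scaling, and at -0.039, -0.049, -0.059 and -0.070 with the covariate too. CANX, PDIA3 and HYOU1 stood at -0.031, -0.043 and -0.021 with quantile normalization. With the W-linked covariate HYOU1 stood at -0.0033, and in the W-linked libraries CANX and PDIA3 at -0.016 and -0.073. From 1 to 6 days XBP1 stood at -0.12, -0.15, -0.12 and -0.072 with median-of-ratios scaling, quantile normalization, the covariate with scaling and the W-linked libraries, and at -0.0068 with the title letter.

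With each library left out, 9 to 10 members rose from 3 to 6 days, 7 to 9 rose from 1 to 6 days, and 9 to 10 differed at any time. Of all genes, 2214 to 3205 passed in either direction from 3 to 6 days and 3398 to 4290 from 1 to 6 days. The shares of all genes higher, or different at any time, were not computed for these fits. With all libraries, 17.4% were higher from 3 to 6 days, 30.0% from 1 to 6 days, and 38.6% differed at any time. For the change after 3 days minus the change before it, the count of members past the threshold ran from 3 (without C33R) to 6. The count of all genes from 1 to 3 days ran from 847 (without C33R) to 2153 (without C42L). From 1 to 3 days CALR ranged from -0.038 to 0.092, CANX from -0.0013 to 0.049, PDIA3 from -0.055 to 0.049 and HYOU1 from -0.046 to 0.066. XBP1 from 1 to 6 days ranged from -0.028 to 0.068. HSP90B1 over HSP90AA1 from 1 to 6 days ranged from 0.11 to 0.26, and passed without C10R (exact permutation test, adjusted p = 0.021). The causes were not tested.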
